A study of Mus musculus with 4 samples.

Results

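The mitochondrial ribosomal proteins measured here were the 71 genes with symbols starting with Mrpl or Mrps among 16492 probe sets tested, 46 of them Mrpl (large subunit) and 25 Mrps (small subunit). They were chosen by symbol alone, with each row of the table named through the Entrez gene number of its probe set. Another 7 mouse genes of these names (Mrpl4, Mrpl23, Mrpl48, Mrps10, Mrps18b, Mrps33 and Mrps36) were not analysed here. The samples were quadriceps muscles of 4 mice (strain label B6C3Fe a/a-Ttnmdm/J), each hybridised to its own Affymetrix array. The mdm mutant group held 2 mice labelled as titin mutant, and the wild type group held 2 mice of the same strain labelled as titin wild type. The sample titles mark the mutant mice Ttn+ and the wild types Ttn-, and the groups here follow the genotype field, with which the source names and descriptions match for all 4 mice. Titin is the giant spring protein of the muscle sarcomere, and mdm is a titin allele that causes muscular dystrophy with myositis. The labels used here state no age, sex or number of mutant alleles, nor whether mice were littermates.

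The mitochondrial ribosome translates the few messages encoded by mitochondrial DNA, all of them for subunits of the respiratory chain and the ATP synthase. Its RNAs are mitochondrial, but every one of its proteins is encoded in the nucleus, made on cytosolic ribosomes and imported. Some of these proteins descend from those of the bacterial ribosome, and others are found only in mitochondria. Muscle fibres, which are rich in mitochondria, express them at high levels, and inherited defects of several cause muscle or heart disease in humans.

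Messages of the mitochondrial ribosome were lower in mdm mutant muscle for 24 of the 71 genes and higher for 0, and the size of the change was modest, between 1.21-fold and 1.53-fold for the genes that passed the test. The genes that fell included the stalk protein Mrpl12, the membrane-anchoring protein Mrpl45, Mrpl16 and Mrpl27 near the peptidyl transferase centre, and the small subunit proteins Mrps28, Mrps27, Mrps11 and Mrps14. Both subunits took part, with 16 of 46 Mrpl genes and 8 of 25 Mrps genes. Levels are log2 RMA expression values, and differences are log2 values of mdm mutant less those of wild type ± the standard error from limma, n = 2 mice per group throughout, and a gene passed at an adjusted p under 0.05 (Benjamini-Hochberg over all 16492 probe sets). Fewer cells of a type and less RNA per cell cannot be told apart in such bulk samples.

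The share of members that fell, 33.8%, stood beside 6.36% of all probe sets called lower and 11.9% of those brighter than the median probe set. All 71 members were brighter than that median. Of all probe sets 6.46% were called higher, against 0 members in limma. At an unadjusted p under 0.05 too, 0 members were higher, and 46 were lower. The share of all probe sets at an unadjusted p under 0.05 was not counted. The median difference of the members was −0.24, against −0.02 over all probe sets. The differences of 66 members were below 0, against 55.6% of all probe sets. With the arrays centred on the hybridization controls, 56 members were below 0. That centring moved the median of all probe sets to 0.09. In 55 members both mdm mutant mice read below both wild type mice, against 34.2% of all probe sets. Among the remaining members 1, Mrpl20, had both mutants above both wild types, and in 15 the groups overlapped. Without mdm mutant 1 the number that fell was 18, of which 13 were among the 24, and without mdm mutant 2 it was 2, Mrps28 and Mrps27. It was 0 without wild type 1 and 0 without wild type 2, where 30 and 37 members were lower at an unadjusted p under 0.05. With 1 mouse left out, between 1.13% and 3.30% of all probe sets were called lower.

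**Figure D1:**
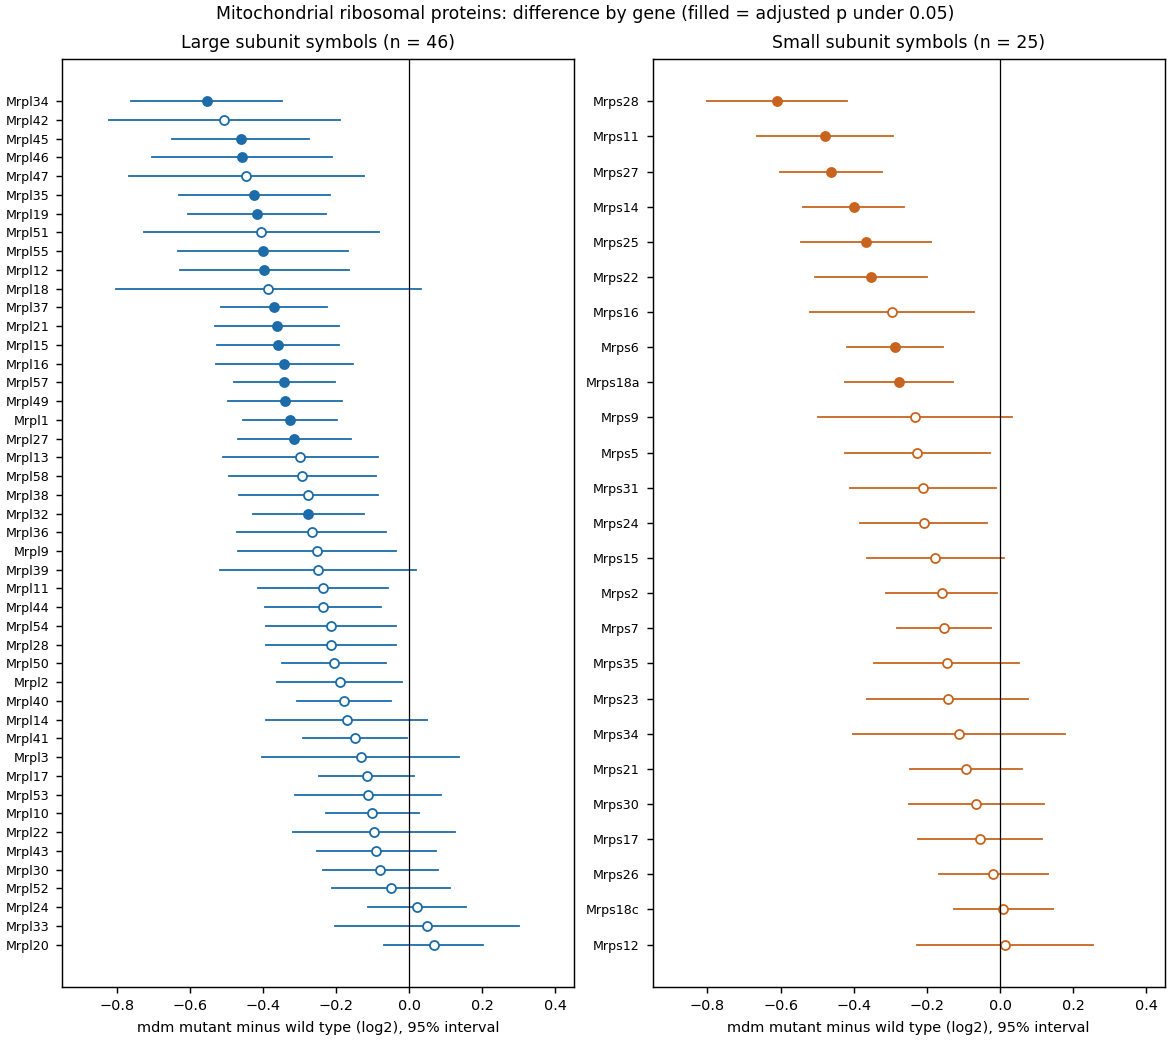
Difference of each mitochondrial ribosomal protein gene between mdm mutant and wild type quadriceps (log2, horizontal axis), with points for the limma estimates and lines for their 95% intervals, large subunit symbols on the left (46 genes) and small on the right (25 genes). Filled points passed at an adjusted p under 0.05 (16 and 8 genes), and all of them lie left of 0.

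Promoter sequences are shown for 5 genes, to set those that fell, Mrps11 with its neighbour Mrpl46, Mrpl34, Mrps27 and Mrpl32, beside Mrps12, which did not pass the test. The sequences are from RefSeq (GRCm38.p6), where 63 of the 71 members had an entry, and run 5′ to 3′ on the gene's strand from 250 bases before the transcription start to 50 bases after it. Capitals mark matches, on either strand, to CCGGAAG (bound by ETS factors such as GABP), GCGCATGC (core of the NRF1 motif) and AAGATGG (YY1), with overlapping matches joined. These factors are known regulators of nuclear genes for mitochondrial proteins.
Mrps11, with the start of Mrpl46 42 bases away on the other strand, chr7:78782881-78783180, plus strand: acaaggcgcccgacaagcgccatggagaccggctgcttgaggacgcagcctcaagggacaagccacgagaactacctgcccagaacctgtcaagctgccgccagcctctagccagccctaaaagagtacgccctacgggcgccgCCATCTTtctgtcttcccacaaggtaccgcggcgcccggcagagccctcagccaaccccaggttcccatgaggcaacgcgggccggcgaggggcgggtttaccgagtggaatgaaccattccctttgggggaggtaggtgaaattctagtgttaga
Mrpl34, chr8:71464676-71464975, plus strand: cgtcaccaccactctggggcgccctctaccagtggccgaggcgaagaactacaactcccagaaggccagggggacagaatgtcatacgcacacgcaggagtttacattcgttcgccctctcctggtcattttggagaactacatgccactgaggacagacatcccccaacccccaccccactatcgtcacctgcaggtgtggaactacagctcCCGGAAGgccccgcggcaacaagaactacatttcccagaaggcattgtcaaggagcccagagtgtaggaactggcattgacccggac
Mrps27, chr13:99344536-99344835, plus strand: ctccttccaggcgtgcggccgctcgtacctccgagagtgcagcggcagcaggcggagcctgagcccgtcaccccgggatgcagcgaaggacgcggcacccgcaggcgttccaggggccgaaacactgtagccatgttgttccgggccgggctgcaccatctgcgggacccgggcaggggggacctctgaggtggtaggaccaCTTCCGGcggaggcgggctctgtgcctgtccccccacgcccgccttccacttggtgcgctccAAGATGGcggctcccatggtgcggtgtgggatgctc
Mrpl32, chr13:14612988-14613287, minus strand: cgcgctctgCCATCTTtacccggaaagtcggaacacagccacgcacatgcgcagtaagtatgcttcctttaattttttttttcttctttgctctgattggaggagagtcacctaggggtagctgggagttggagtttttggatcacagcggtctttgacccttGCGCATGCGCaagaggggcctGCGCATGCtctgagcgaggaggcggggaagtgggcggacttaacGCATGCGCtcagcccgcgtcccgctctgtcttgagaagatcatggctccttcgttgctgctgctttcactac
Mrps12, chr7:28741772-28742071, minus strand: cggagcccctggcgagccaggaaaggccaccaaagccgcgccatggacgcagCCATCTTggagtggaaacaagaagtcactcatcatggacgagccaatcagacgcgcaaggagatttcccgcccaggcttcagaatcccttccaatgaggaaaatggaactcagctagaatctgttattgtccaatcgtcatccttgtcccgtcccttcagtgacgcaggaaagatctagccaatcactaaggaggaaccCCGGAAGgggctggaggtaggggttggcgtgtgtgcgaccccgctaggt
Of these windows, that of Mrpl32 alone held the NRF1 core, in 3 separate stretches. Those of Mrpl34, Mrps27 and Mrps12 held the ETS motif, and all but that of Mrpl34 held the YY1 motif. The 5 windows are examples that each hold a motif, whereas 12 of the 21 members that fell and had an entry held any. Only 1 of those 21 held the NRF1 core, and the window of Mrpl46 itself, not shown, held none of the motifs.

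Over the 63 members with a promoter entry, CCGGAAG was found for 36.5%, AAGATGG for 20.6% and GCGCATGC for 11.1%. The shares over all 27025 genes of the promoter table, measured here or not, were 9.93%, 7.28% and 3.05%. No shares were counted for genes of like brightness, so an excess particular to the members cannot be read from these values. At least 1 of the 3 motifs was found for 35 of the 63 members, against 18.6% of all genes in the promoter table. Among members that fell it was found for 12 of 21, and among the others for 23 of 42. The YY1 motif was found for 7 of the 21 that fell and 6 of the 42 others, and the ETS motif for 7 of 21 and 16 of 42. These are counts of letters in a fixed window and no test was made of them.

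In the small subunit, which binds the messenger and reads the codons, 8 of the 25 genes with an Mrps symbol fell. Mrps28 (Entrez 66230), a protein with a bacterial counterpart, read 10.71 and 10.55 in the mdm mutants against 11.28 and 11.20 in the wild types. The groups did not overlap, and its difference of −0.61 ± 0.08, or 1.53-fold (95% interval −0.80 to −0.42, adjusted p = 0.0126), was the largest of all 71 members. Mrps27 (Entrez 218506), a pentatricopeptide repeat protein found only in mitochondria, read 7.99 and 8.07 in the mutants against 8.50 and 8.49 in the wild types. Its 2 groups were tight and well apart, and it fell by 0.46 with a standard error of 0.06 (adjusted p = 0.0118), the smallest adjusted p of the members.

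Mrps11 (Entrez 67994), a protein of the small subunit platform, read 8.27 and 8.11 in mdm mutant and 8.71 and 8.62 in wild type muscle and changed by −0.48 ± 0.07 (adjusted p = 0.0204). Mrps14 (Entrez 64659), which has a bacterial counterpart in the subunit head, read 8.50 and 8.42 against 8.86 in both wild type mice (−0.40 ± 0.05, adjusted p = 0.0158). In both genes every mutant value lay below every wild type value. The mitochondria-specific proteins Mrps25 and Mrps22, the latter a cause of mitochondrial disease in humans, changed by −0.37 ± 0.07 and −0.35 ± 0.06. Mrps6, a platform protein, changed by −0.29 ± 0.05 and Mrps18a by −0.28 ± 0.06. Adjusted p-values of these last 4 genes lay between 0.0252 and 0.0408.

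Mrps18a carries a small subunit symbol, but in mitoribosome structures its protein lies in the large subunit, as does that of Mrps30. Mrps30 (Entrez 59054) read 9.21 and 9.39 in the mdm mutants against 9.38 and 9.36 in the wild types. One mutant lay below the wild types and the other above them, and the difference of −0.07 ± 0.07 (adjusted p = 0.600) did not pass. Of the small subunit genes that did not pass, Mrps16 had the lowest difference (−0.30 ± 0.09, adjusted p = 0.0913), with values of 10.68 and 10.45 against 10.90 and 10.82. Mrps12, which lies at the decoding centre, read 10.36 and 10.12 in the mutants and 10.28 and 10.17 in the wild types, and its groups overlapped (0.01 ± 0.10, 95% interval −0.23 to 0.25). Mrps18c and Mrps26 overlapped too, with differences of 0.01 ± 0.05 and −0.02 ± 0.06.

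In the large subunit, which joins amino acids and holds the exit tunnel of the new chain, 16 of the 46 genes with an Mrpl symbol fell. Mrpl34 (Entrez 94065), which has a bacterial counterpart, changed most among them. It read 9.79 and 9.58 in the mdm mutants against 10.27 and 10.21 in the wild types, a difference of −0.55 ± 0.08 or 1.47-fold (95% interval −0.76 to −0.35, adjusted p = 0.0185). Mrpl45 (Entrez 67036), a mitochondria-specific protein beside the tunnel exit that holds the ribosome at the inner membrane, read 9.48 and 9.31 against 9.82 and 9.89. Its groups were also apart, and it changed by −0.46 ± 0.07 (adjusted p = 0.0223).

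Around the peptidyl transferase centre, Mrpl27 (Entrez 94064) read 10.66 and 10.56 in mdm mutant and 10.96 and 10.89 in wild type muscle, and Mrpl16 (Entrez 94063) read 9.85 and 9.74 against 10.06 and 10.21. Neither gene's groups overlapped, and they changed by −0.31 ± 0.06 and −0.34 ± 0.07 (adjusted p = 0.0335 and 0.0437). Mrpl12 (Entrez 56282), the stalk protein that recruits translation factors and that also binds the mitochondrial RNA polymerase, read 10.88 and 10.63 against 11.16 and 11.14. It changed by −0.40 ± 0.09, just inside the threshold (adjusted p = 0.04999). Mrpl1 (Entrez 94061), the protein of the other stalk, where spent tRNAs leave, read 7.38 and 7.40 against 7.74 and 7.69 (−0.33 ± 0.05, adjusted p = 0.0214). For these 4 genes each mutant read below each wild type.

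Mrpl46 (Entrez 67308), a mitochondria-specific protein of the central protuberance, read 9.14 and 8.87 in the mutants and 9.50 and 9.42 in the wild types, and changed by −0.46 ± 0.10 (adjusted p = 0.0414). Mrpl32, which is matured by the mitochondrial m-AAA protease in mice, read 9.94 and 9.86 against 10.14 and 10.22 (−0.28 ± 0.06, adjusted p = 0.0433). The other members with bacterial counterparts that fell were Mrpl35 (−0.42 ± 0.08), Mrpl19 (−0.42 ± 0.08), Mrpl55 (−0.40 ± 0.09), Mrpl21 (−0.36 ± 0.07) and Mrpl15 (−0.36 ± 0.07). The other mitochondria-specific ones were Mrpl37 (−0.37 ± 0.06), Mrpl57 (−0.34 ± 0.05) and Mrpl49 (−0.34 ± 0.06). Adjusted p-values of these 8 genes lay between 0.0211 and 0.0495.

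Some large subunit genes had differences of the same size without passing. In Mrpl42, Mrpl47 and Mrpl18 the values spread more between the mdm mutant mice than between the wild types. Mrpl42 read 12.03 and 11.65 in the mutants and 12.35 and 12.34 in the wild types (−0.51 ± 0.12, adjusted p = 0.0580). Mrpl47, a protein at the tunnel exit, read 9.32 and 8.94 against 9.61 and 9.54 (−0.45 ± 0.13, adjusted p = 0.0809), and Mrpl18 read 10.69 and 10.17 against 10.82 and 10.81 (−0.39 ± 0.17, adjusted p = 0.190). In each of the 3 the second mutant was the lower, so the difference depended on which mutant was left out. Without mdm mutant 1 the differences were −0.69, −0.63 and −0.64, and without mdm mutant 2 they were −0.32, −0.26 and −0.13. Mrpl51 (−0.40 ± 0.13) and Mrpl13 (−0.30 ± 0.08) did not pass either (adjusted p = 0.0993 and 0.0783). Mrpl51 spread more between the wild types, with 8.58 and 8.40 in the mutants against 8.73 and 9.06. Mrpl58, a peptidyl-tRNA hydrolase built into the large subunit, read 9.81 and 9.67 in the mutants and 10.11 and 9.96 in the wild types (−0.29 ± 0.08, adjusted p = 0.0729).

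Only 5 of the 71 members had a difference above 0, and none of them passed. They were Mrpl20 (0.07 ± 0.05), Mrpl33 (0.05 ± 0.10), Mrpl24 (0.02 ± 0.05), Mrps12 and Mrps18c. Mrpl20 read 9.78 and 9.71 in the mdm mutants against 9.68 and 9.67 in the wild types, and its interval ran from −0.07 to 0.20. Mrpl24 read 10.18 and 10.14 against 10.17 and 10.11, with an interval of −0.11 to 0.15. Both intervals include 0. The 47 members that did not pass ranged from −0.51 to 0.07, and 42 of them were below 0.

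**Figure D2:**
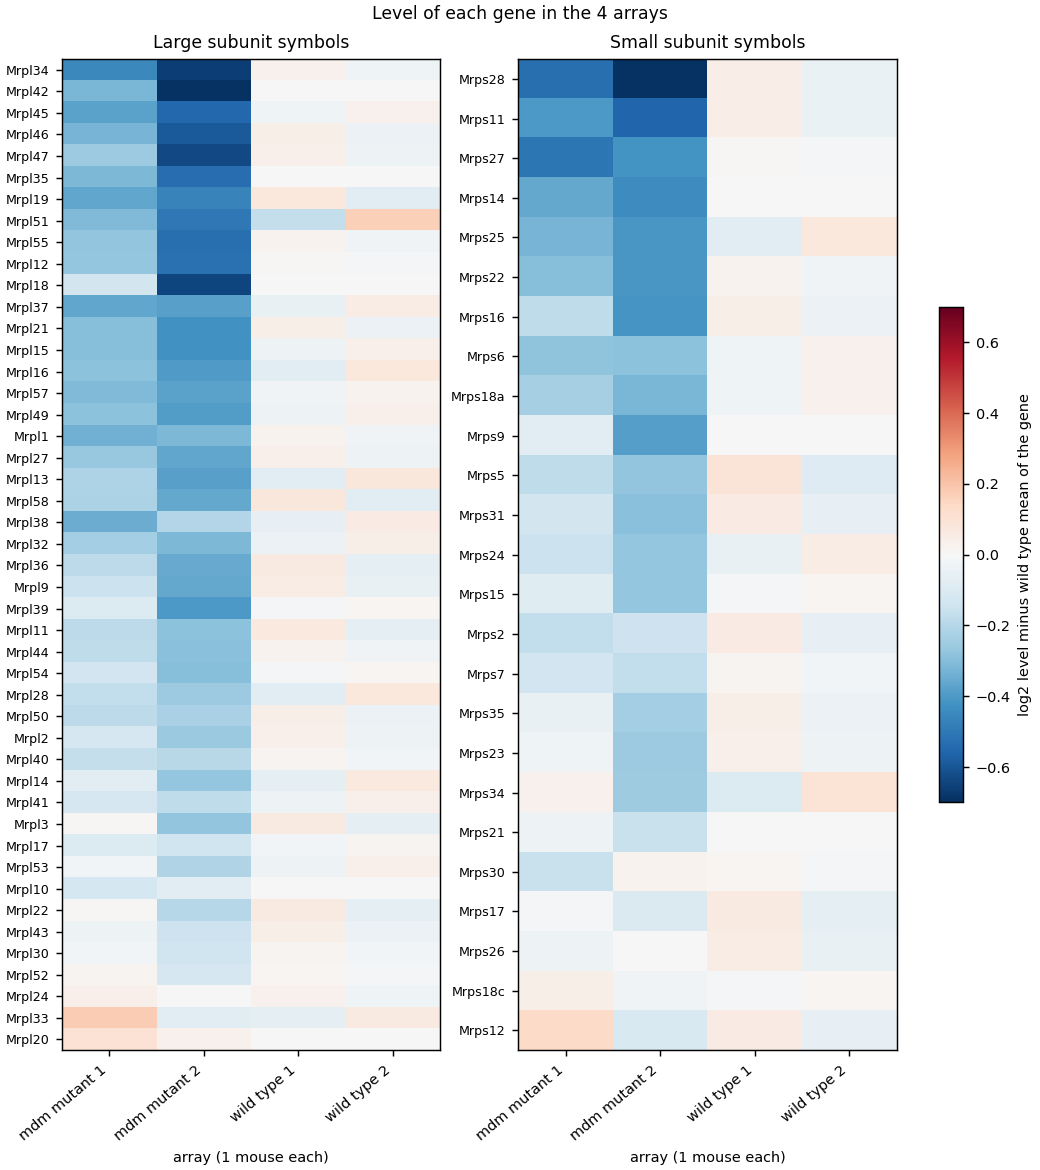
Level of each member in the 4 arrays as colour (log2 level minus the gene's mean in the 2 wild type mice), with 1 row per gene ordered by its difference and large and small subunit symbols in separate panels. The second mdm mutant column is bluer than the first in most rows, and read lower in 64 of the 71 genes.

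The median difference was −0.27 for Mrpl and −0.21 for Mrps genes, a gap of −0.06 that lay between −0.08 and −0.04 with single mice left out. At an adjusted p under 0.1 the counts were 27 of 46 and 9 of 25, and the share of all probe sets at that threshold was not counted. With Mrps18a and Mrps30 counted in the large subunit, 17 of 48 large and 7 of 23 small subunit genes fell, with medians of −0.27 and −0.21. The mean level of the 46 Mrpl genes was 9.57 and 9.42 in the mdm mutant mice and 9.75 in each wild type mouse. That of the 25 Mrps genes was 9.41 and 9.30 against 9.58 and 9.56. In both subunits the order of the mice was the same, with the second mutant lowest, the first mutant next and the wild types nearly equal. Genes with bacterial counterparts and mitochondria-specific genes also had like medians, −0.24 (16 of 44 fell) and −0.24 (8 of 27 fell). On the deposited scale, without centring on the hybridization controls, all 27 mitochondria-specific members had differences below 0, as had 39 of the 44 others. No test of these contrasts was made.

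The 2 mdm mutant mice differed from each other in these genes. The median member lay 0.18 below its wild type mean in the first mutant and 0.29 in the second. The first mutant read below both wild type mice in 56 members and the second in 67, where over all probe sets the shares were 43.9% and 44.8%. The second mutant read below the first in 90.1% of members and in 50.6% of all probe sets. This was not particular to the members. In lists described below the share was 90.5% for respiratory complex I, 84.6% for translation factors and 63.0% for assembly factors. Among markers of other cell types, the 12 endothelial markers were all lower in the second mutant than in the first, and 15 of 17 macrophage markers were higher. Of 12 fibroblast markers 4 were lower in the second mutant, as were 4 of 8 adipocyte and 4 of 12 skeletal muscle markers.

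Some of those markers differed between the genotypes as well. Of the 17 macrophage markers 10 rose and 0 fell, with a median difference of 0.60, and the smallest p-values were those of Lgals3, Mpeg1, Fcgr3 and Lyz2 (2.60 ± 0.19, 1.54 ± 0.15, 0.72 ± 0.07 and 1.14 ± 0.13). Their log2 levels, summed, were 153.9 and 158.2 in the mutants and 143.9 and 142.3 in the wild types, and single values lay between 6.59 and 11.55. Of the 12 endothelial markers 2 fell, Pecam1 and Robo4 (−0.33 ± 0.07 and −0.44 ± 0.10), with a median of −0.30. Centred on the hybridization controls, which shifts all values, 15 macrophage markers rose and 0 endothelial markers fell, where 17.2% of all probe sets rose and 3.66% fell. Of the 12 fibroblast markers Fbln2 and Lum rose (0.55 ± 0.06 and 0.42 ± 0.05) and Thy1 fell (−0.43 ± 0.06), with a median of 0.05. They summed to 126.4 and 126.3 in the mutants and 125.4 and 125.5 in the wild types. Of 8 adipocyte markers 7 were above 0 and none of these passed, with a median of 0.52. Ucp1 fell, from 8.80 and 7.60 in the wild types to 6.64 and 6.49 in the mutants (−1.63 ± 0.37). The adipocyte markers summed to 72.6 and 73.2 in the mutants and 73.1 and 67.5 in the wild types, so the second wild type stood apart. This sum includes Ucp1, which was highest in wild type 1. In 6 of the other 7 markers both mutants read above both wild types. Of the 12 skeletal muscle markers 1, Des, rose (0.44 ± 0.08) and 0 fell in limma, and they summed to 164.7 and 164.6 in the mutants and 164.3 and 164.9 in the wild types. Their values of 11.58 to 14.98 reach the top of the scale, where Acta1 and Tnni2 read the same on all 4 arrays. The part of other cell types in the lower mitochondrial ribosomal messages was not tested. Titin itself read 12.66 and 12.68 in the mutants and 12.58 and 12.65 in the wild types (0.05 ± 0.05, adjusted p = 0.564), and since it is unknown here whether its probes cover the mutated stretch, this checks no label. On every array the median over all probe sets was 7.28.

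Genes that work with the mitochondrial ribosome were lower in part. Of 3 measured mitoribosome proteins without an Mrp symbol, Dap3, the GTP-binding protein of the small subunit, fell. It read 9.53 and 9.62 in the mdm mutants against 9.92 and 9.99 in the wild types (−0.38 ± 0.06, adjusted p = 0.0213). Gadd45gip1 and Chchd1 stood at −0.29 ± 0.07 and −0.19 ± 0.08 without passing (adjusted p = 0.0554 and 0.178).

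For comparison with this list and those that follow, 6.36% of all probe sets were called lower and 6.46% higher. Among the brighter probe sets 11.9% were called lower. Of 13 translation factors 5 fell and 0 rose, with a median of −0.30. They were Lrpprc, which stabilises mitochondrial messages (−0.46 ± 0.06), the elongation factor Gfm1 (−0.36 ± 0.06), the ribosome recycling factor Gfm2 (−0.37 ± 0.06), the initiation factor Mtif2 (−0.46 ± 0.10) and the release factor Mtrf1l (−0.32 ± 0.06). Of 27 assembly and rRNA modification factors 9 fell and 0 rose, with a median of −0.18. The smallest p-values were those of the RNA methyltransferases Trmt2b, Nsun4 and Tfb1m (−0.55 ± 0.07, −0.38 ± 0.05 and −0.48 ± 0.07) and of Eral1, a GTPase that binds the small subunit rRNA (−0.39 ± 0.06). Of 19 mitochondrial aminoacyl-tRNA synthetases and partners 5 fell, namely Qrsl1, Aars2, Sars2, Gatc and Lars2, by 0.30 to 0.49 on the log2 scale. Of 11 genes of mitochondrial transcription and replication Polrmt and Tefm, the RNA polymerase and its elongation factor, fell (−0.26 ± 0.05 and −0.37 ± 0.08), and the median was −0.13.

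With either wild type mouse left out, 0 of the 5 translation factors, 1 of the assembly factors and 0 of the synthetases passed in limma. With mdm mutant 1 left out, 3, 4 and 3 genes of these lists passed, and with mdm mutant 2 left out 0 did. Polrmt, Tefm and Dap3 each lost their call whichever mouse was left out. Centring on the hybridization controls left 3 translation factors, 5 assembly factors and 4 synthetases lower, and neither transcription gene. It raised 1 translation factor and 1 synthetase past the threshold. In that setting 3.66% of all probe sets were called lower and 17.2% higher.

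Of 9 nuclear regulators of mitochondrial genes 2 fell and 3 rose. The receptor Esrra read 8.99 and 8.82 in the mdm mutants against 9.39 and 9.28 in the wild types (−0.43 ± 0.08, adjusted p = 0.0295). The coactivator Ppargc1a read 9.08 and 8.73 against 9.51 and 10.02 (−0.86 ± 0.20, adjusted p = 0.0483). Both were apart between the groups. Yy1, Myc and Pprc1, a relative of Ppargc1a, rose (0.46 ± 0.07, 0.73 ± 0.14 and 0.40 ± 0.07). Nrf1 (0.06 ± 0.06), Gabpa (−0.09 ± 0.06), Gabpb1 (−0.02 ± 0.05) and Ppargc1b (−0.10 ± 0.14) did not pass. None of these 5 calls held with each mouse left out in turn.

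Beside the mitochondrial ribosome, respiratory complex I, whose mitochondrial subunits it makes, had 11 of 42 genes lower, 0 higher and a median of −0.23. The smallest p-values were those of the assembly factors Ndufaf5, Ndufaf6 and Ndufaf1 and of the subunit Ndufs8 (−0.81 ± 0.05, −0.87 ± 0.08, −0.51 ± 0.08 and −0.48 ± 0.08). Of 23 measured genes with Rpl or Rps symbols, the names of cytosolic ribosomal proteins, 7 rose and 1 fell, with a median of 0.28. The list was made by symbol alone, and Rps19bp1 in it is not a ribosomal protein (0.08 ± 0.05, not passed). It also holds symbols of relatives, such as Rpl7l1, Rpl39l, Rps4l and Rps27l, and Rps27l was among the 7 that rose (0.34 ± 0.07). Some rows were dim. Rpl17, another of the 7, read 7.07 and 7.11 in the mutants against 6.88 and 6.80 in the wild types. These values lie below the array median of 7.28, as did those of Rpl21 and Rps15a. How many cytosolic ribosomal protein genes lack a row here was not counted. Rps9, Rpl22 and Rpl23 rose (0.54 ± 0.07, 0.46 ± 0.09 and 0.37 ± 0.05). The 1 that fell was Rpl3l, the muscle-specific relative of Rpl3 (−0.67 ± 0.05, adjusted p = 0.00514). No test of the difference between these lists was made. The number of Rpl and Rps genes that rose was 5 and 1 without mdm mutant 1 and mdm mutant 2, and 0 without either wild type mouse, while Rpl3l passed each time. For complex I the number that fell was 15 without mdm mutant 1 and 2 without any other single mouse. Centred on the hybridization controls, 16 Rpl and Rps genes rose and 6 complex I genes fell, where 17.2% of all probe sets rose and 3.66% fell.

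**Figure D3:**
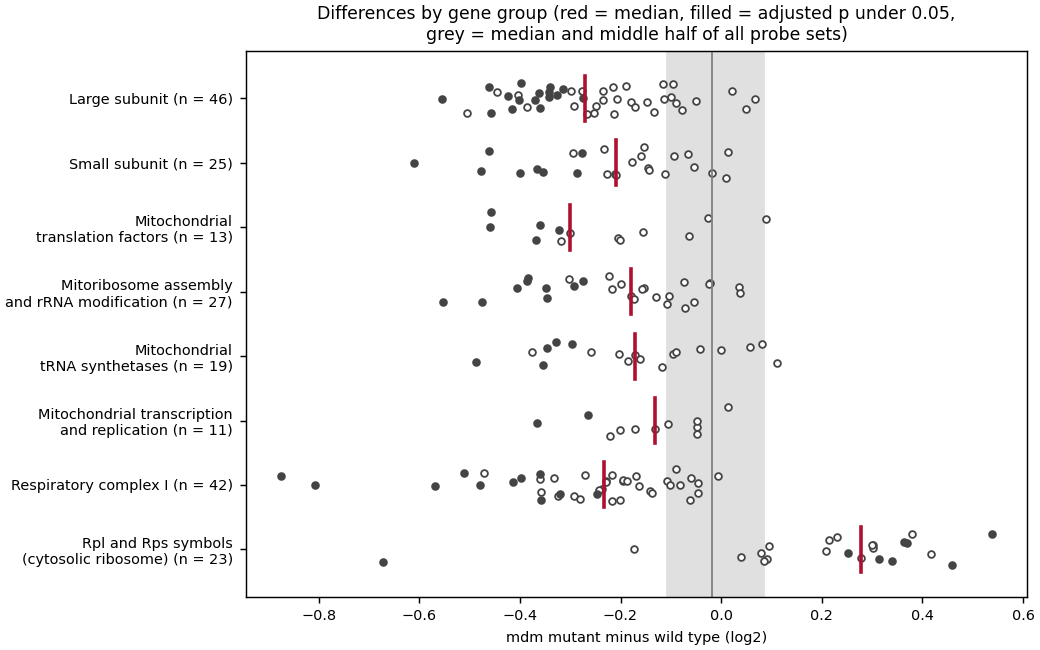
Difference between mdm mutant and wild type (log2, horizontal axis) of each gene in 8 groups, with filled points for genes past an adjusted p of 0.05, red bars for group medians, and the grey band and line for the interquartile range and the median of all probe sets. The large and small subunit medians (−0.27 and −0.21) lie below the band, and the Rpl and Rps median (0.28) lies above it.

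In the mouse genome some of these genes start head to head with another gene. Such a partner was found for 25 members, with its start under 1000 bases away, a limit chosen with the data in view. For 21 of them the partner was measured. The share of all genes with such a partner was not counted. Mrps11 and Mrpl46, whose starts are 42 bases apart, were both called lower, by 0.48 and 0.46 on the log2 scale. Of 19 partners that are not mitochondrial ribosomal genes 1 fell, 0 rose, and 12 were below 0, with a median of −0.07. Over all probe sets 6.36% fell and 55.6% were below 0, so these partners stood near the background. The 1 that fell was Sars2, the mitochondrial seryl-tRNA synthetase, which starts 147 bases from Mrps12. Sars2 read 8.31 and 8.38 in the mdm mutants against 8.69 and 8.68 in the wild types (−0.35 ± 0.05, adjusted p = 0.0201), while Mrps12 stood at 0.01 ± 0.10.

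The following pairs were named after their values were seen, and no difference within a pair was tested. Ptcd2, which starts 108 bases from Mrps27, stood at −0.26 ± 0.06 (adjusted p = 0.0590) beside the −0.46 ± 0.06 of Mrps27. Ndufb5, a complex I subunit that starts 308 bases from Mrpl47, stood at −0.28 ± 0.11 beside −0.45 ± 0.13. Neither Ndufb5 nor Mrpl47 passed. Psma2, a proteasome subunit 205 bases from Mrpl32, stood at 0.25 ± 0.06 (adjusted p = 0.0530) where Mrpl32 fell. Eme1 and Ska3, beside Mrpl27 and Mrpl57, stood at 0.05 ± 0.06 and 0.10 ± 0.05.

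**Figure D4:**
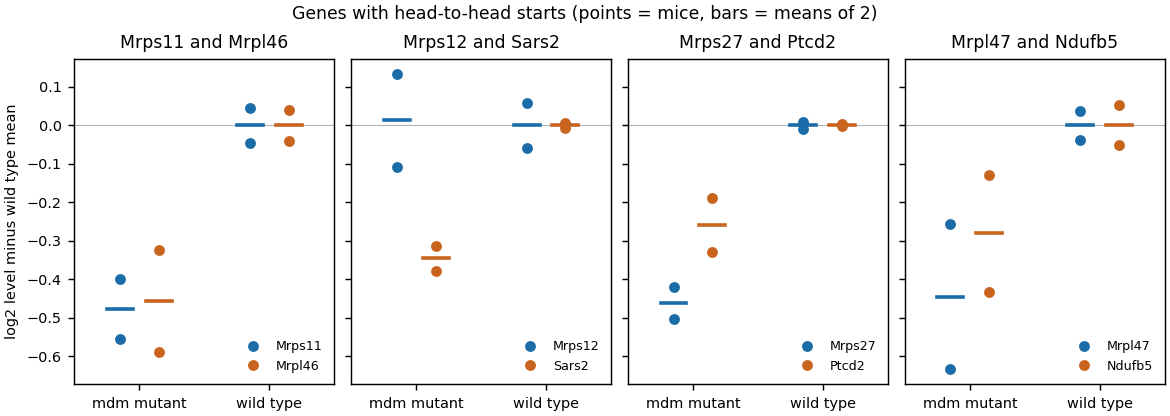
Level in each mouse (log2, minus the gene's wild type mean) for 4 head-to-head pairs, with points for mice and bars for the mean of 2 mice. Both mutant points lie below the wild types for Mrps11 and Mrpl46 alike, whereas for Mrps12 and Sars2 this holds only for Sars2.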

How the data were processed

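Quadriceps RNA of 4 mice was hybridised to Affymetrix arrays, 2 mice per group. The authors deposited 1 log2 value per probe set and array, and the submitters' processing notes name RMA as the method, without a version. This method subtracts background, equalises the arrays by quantiles and reduces the probes of a set to 1 value. Sorted, the 4 columns differed by more than 1e-06 at 26 of 16553 ranks, so a shift of most genes in 1 direction would not be visible. The table held no detection calls, and the number of arrays limits the precision.

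After 61 array controls were left out, 16492 probe sets were fitted with limma (version 3.58.1, R 4.3.3) by lmFit and eBayes (no covariates, Benjamini-Hochberg adjustment), with 5.35 degrees of freedom per gene. Symbols of 15270 probe sets came from the platform annotation and were updated by Entrez number (RefSeq, GRCm38.p6). The fit was tested on simulated data. Groups were taken from the genotype labels, and mice were numbered in deposition order. The members and gene lists were chosen with earlier results of these data known, and no list was tested as a set. Genes were named if called (the 4 smallest p-values where a list had more than 6), if among the 6 largest uncalled differences in each direction or the 4 smallest differences of members, or for their role. Figures were drawn with matplotlib 3.10.9. Alternatives were removal of dim probe sets, other eBayes settings, other centring and normalization, single mice left out, other thresholds and other member or subunit rules.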

Additional observations from a re-analysis of the deposited data

How the results depend on the processing

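Values are the genes called lower, of 71 members, of which 24 (16 Mrpl and 8 Mrps) were called as reported. The counts moved by at most 1.5 times without the dimmer probe sets, with eBayes trend and robust, with median centring, with repeated quantile normalization, with platform symbols, with subunits by structure and, added after the data were seen, with the 2 rows named only through their ID number. The platform symbols named the same 71 rows, so that setting could not change the counts. The arrays already had near equal medians and sorted values, so median centring and repeated quantile normalization could change little. Without variance moderation 0 members were called lower (0 Mrpl and 0 Mrps), and 23 had an unadjusted p under 0.05. Only 1 of all 16492 probe sets was called in that setting, so the 0 is not particular to the members. At an adjusted p under 0.01 the counts were 0, 0 and 0, and at 0.1 36 members were called, 27 Mrpl and 9 Mrps genes. The shares of all probe sets at these other thresholds were not counted. Centring on the 18 hybridization control probe sets moved the median of all probe sets from −0.02 to 0.09. In that setting 15 members (9 Mrpl) were called lower, 0 were called higher and the member median was −0.12. Of all probe sets 3.66% were called lower and 17.2% higher there. With single mice left out the calls ranged from 0 to 18 (0 to 12 Mrpl and 0 to 6 Mrps), the member median from −0.29 to −0.18 and the Mrpl minus Mrps gap from −0.084 to −0.036. The cause of the losses was not tested. No member was called higher under any of these settings, and no called member changed sign. No paired analysis was possible because no number is shared between the mice of the 2 groups.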

Other observations

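Another 2 rows of the table have no gene in the platform annotation, but the number in their ID is the RefSeq number of an Mrpl pseudogene. The row numbered as Mrpl27-ps read 10.67 and 10.59 in the mdm mutants against 10.98 and 11.17 in the wild types (−0.44 ± 0.08, adjusted p = 0.0290 in limma). Its parent Mrpl27 fell as well, and probes for a gene and its processed copy can bind the same RNA, so the 2 rows may not be separate measurements. The row numbered as Mrpl23-ps1 read 10.29 and 10.22 against 10.32 and 10.66 (−0.24 ± 0.12, adjusted p = 0.239). With both rows counted, 25 genes were called lower.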
